A study of Homo sapiens with 24 samples.

Results

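The genes described here are 57 interferon-stimulated genes, taken by symbol from a fixed list, of 26364 genes in the count tables. All 57 were found. No measured value entered the rule, but the list was chosen with earlier results of these data known. Counts of members below are therefore not those of a list made blind to the data. They were followed in T-47D cells, an established luminal breast cancer line that depends on the estrogen receptor (ER), in 24 RNA-seq libraries made to ask which genes respond to microRNAs (miRNAs) that differ in cells with mutant ER. The cells carried wild-type (WT) ER or were heterozygous for the ESR1 mutation Y537S or D538G at the endogenous locus. Each genotype was represented by 2 clones, so that a genotype rests on 2 cell lines.

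All cells were deprived of hormone and were collected 24 h after transfection of a small RNA at 10 nM. There were 12 groups of 2 libraries, 1 library from each clone. Y537S cells received the mimic negative control (mimic NC), a miR-301b mimic, a miR-331 mimic, the inhibitor negative control (inhibitor NC) or a let-7f inhibitor. D538G cells received the mimic NC, the miR-301b mimic or a miR-181c mimic. WT cells received the mimic NC or the mimic of miR-301b, miR-331 or miR-181c. A mimic adds a miRNA, an inhibitor blocks one, and a negative control is the matching reagent without a chosen target. The labels name clones and not separate cultures or days, so p-values measure only the spread between these libraries, which may be technical. The clones are called 1 and 2 for Y537S, A5 and C2 for D538G, and D1 and D4 for WT, and paired values below are in that order.

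Interferons are cytokines that cells release on sensing viral or other foreign nucleic acid. Type I and type III interferons signal through JAK kinases to the complex ISGF3, which holds STAT2 and IRF9, and ISGF3 binds the interferon-stimulated response element (ISRE) in the promoters of its target genes. The products of these genes detect viral RNA, block viral replication, attach the ubiquitin-like protein ISG15 to other proteins and present peptides to T cells.

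The sequences of the miRNAs that the mimics add, and of let-7f, which the inhibitor blocks, are shown. The mature sequences are from RefSeq on GRCh38.p14, and capitals mark the seed, bases 2 to 8, which differs between all 4. The sequences of the transfected reagents, among them the let-7f inhibitor and the negative controls, are not given in the sources used here.
hsa-miR-301b-3p: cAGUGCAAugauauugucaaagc
hsa-miR-331-3p: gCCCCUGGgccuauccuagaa
hsa-miR-181c-5p: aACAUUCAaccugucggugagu
hsa-let-7f-5p: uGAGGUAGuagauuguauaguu
The miR-301b-3p sequence lies at chr22:21653025-21653047, miR-331-3p at chr12:95308480-95308500 and miR-181c-5p at chr19:13874725-13874746, all on the plus strand. The let-7f-5p sequence is encoded at chr9:94176353-94176374 on the plus strand and at chrX:53557246-53557267 on the minus strand.

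Promoter windows from RefSeq, covering the sequence just before and after each gene's start, were found for 48 of the 57 members. The core letters of the ISRE, GAAA repeated after any 2 bases, or TTTC likewise for the other strand, were in 29 of the 48 (60.4%), against 996 of 27305 promoters of all genes (3.65%). The letters TTCNNNGAA, the core of the gamma-activated site, were in 11 of the 48 (22.9%), against 2152 of all promoters (7.88%). Windows of 4 members, picked because they hold the ISRE core and differed widely between the negative controls, are shown with the core in capitals.
ISG15: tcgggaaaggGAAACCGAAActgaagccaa
IFIT1: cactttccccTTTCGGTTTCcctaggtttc
MX1: gagcagaaatGAAACCGAAActgaattgtc
IFI27: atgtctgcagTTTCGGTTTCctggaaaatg
On the plus strand of GRCh38.p14 these windows are chr1:1013380-1013409 for ISG15, chr10:89392510-89392539 for IFIT1, chr21:41420559-41420588 for MX1 and chr14:94110618-94110647 for IFI27. The core began 107 bases before the annotated start of ISG15, 103 bases before that of IFIT1 and 108 bases before that of IFI27, and lay downstream of the start in MX1. The core did not separate members by the log2 fold change of the inhibitor NC against the mimic NC described below. Its median was 0.94 (0.05 to 2.63) in 28 tested members with the core and 0.57 (0.10 to 2.59) in 19 without. RSAD2 (2.59) and OAS1 (2.08) lack these exact letters in the window, and B2M (0.05) and ISG20 (0.07) hold them. Elements with other letters or outside the window were not looked for. A match of letters describes the window and does not show that a factor binds it.

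The libraries held 31379962 to 50526442 counts. The label of the cells was checked against 9 luminal epithelial markers, among them KRT8, KRT18, GATA3 and ESR1, which summed to 9944 to 15412 CPM (counts scaled to a common library total) in each library. Of 9 leukocyte markers, 8 stayed under 1 CPM in every library, and the pan-leukocyte gene PTPRC did not exceed 0.178 CPM. Of the interferon genes themselves, 6 were looked at (IFNA1, IFNB1, IFNG, IFNL1, IFNL2 and IFNL3). IFNA1 and IFNG had no count. The highest level of any was 0.199 CPM, for IFNL1 in the inhibitor NC library of Y537S clone 1. IFNL3 had counts only there (0.159 CPM), and 3 counts in that library are 0.0594 CPM. IFNB1 stood at 0.12 and 0.0481 CPM with the inhibitor NC and at 0 and 0 CPM with the mimic NC in Y537S cells. It was highest in the WT mimic NC library of D4 (0.179 CPM). IFNL1 also reached 0.19 CPM with the miR-301b mimic in Y537S clone 1. With such low counts these differences were not tested.

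Levels are given as CPM, the usual scaling of a gene's counts to a common library total, here after TMM normalization between libraries. Per kilobase of transcript, B2M, the light chain of class I HLA molecules, had the highest median over the libraries, 212 CPM per kb. BST2, which tethers budding virus to the cell surface, followed with 141 CPM per kb, and ADAR, an RNA-editing enzyme, with 92.1 CPM per kb. At the other end, 10 members had a median under 1 CPM. TAP1, a subunit of the transporter that loads peptides for class I molecules, had no count in 15 of the 24 libraries and at most 6 counts in any, and IFI44L had no count in 15 and at most 13.

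The highest level of most members was found in 1 group. Of the 57 members, 44 had their highest level in an inhibitor NC library, 41 of them in clone 1 and 3 in clone 2, and 7 more had it in a Y537S library with the miR-331 mimic. Between the lowest and highest library, OAS1 ranged 60.8-fold, IFIT1 55.7-fold and ISG15 30.6-fold, whereas ADAR, the steadiest member, ranged 1.32-fold. The heatmap of all members shows the inhibitor NC libraries as a block of high values.

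**Figure D1:**
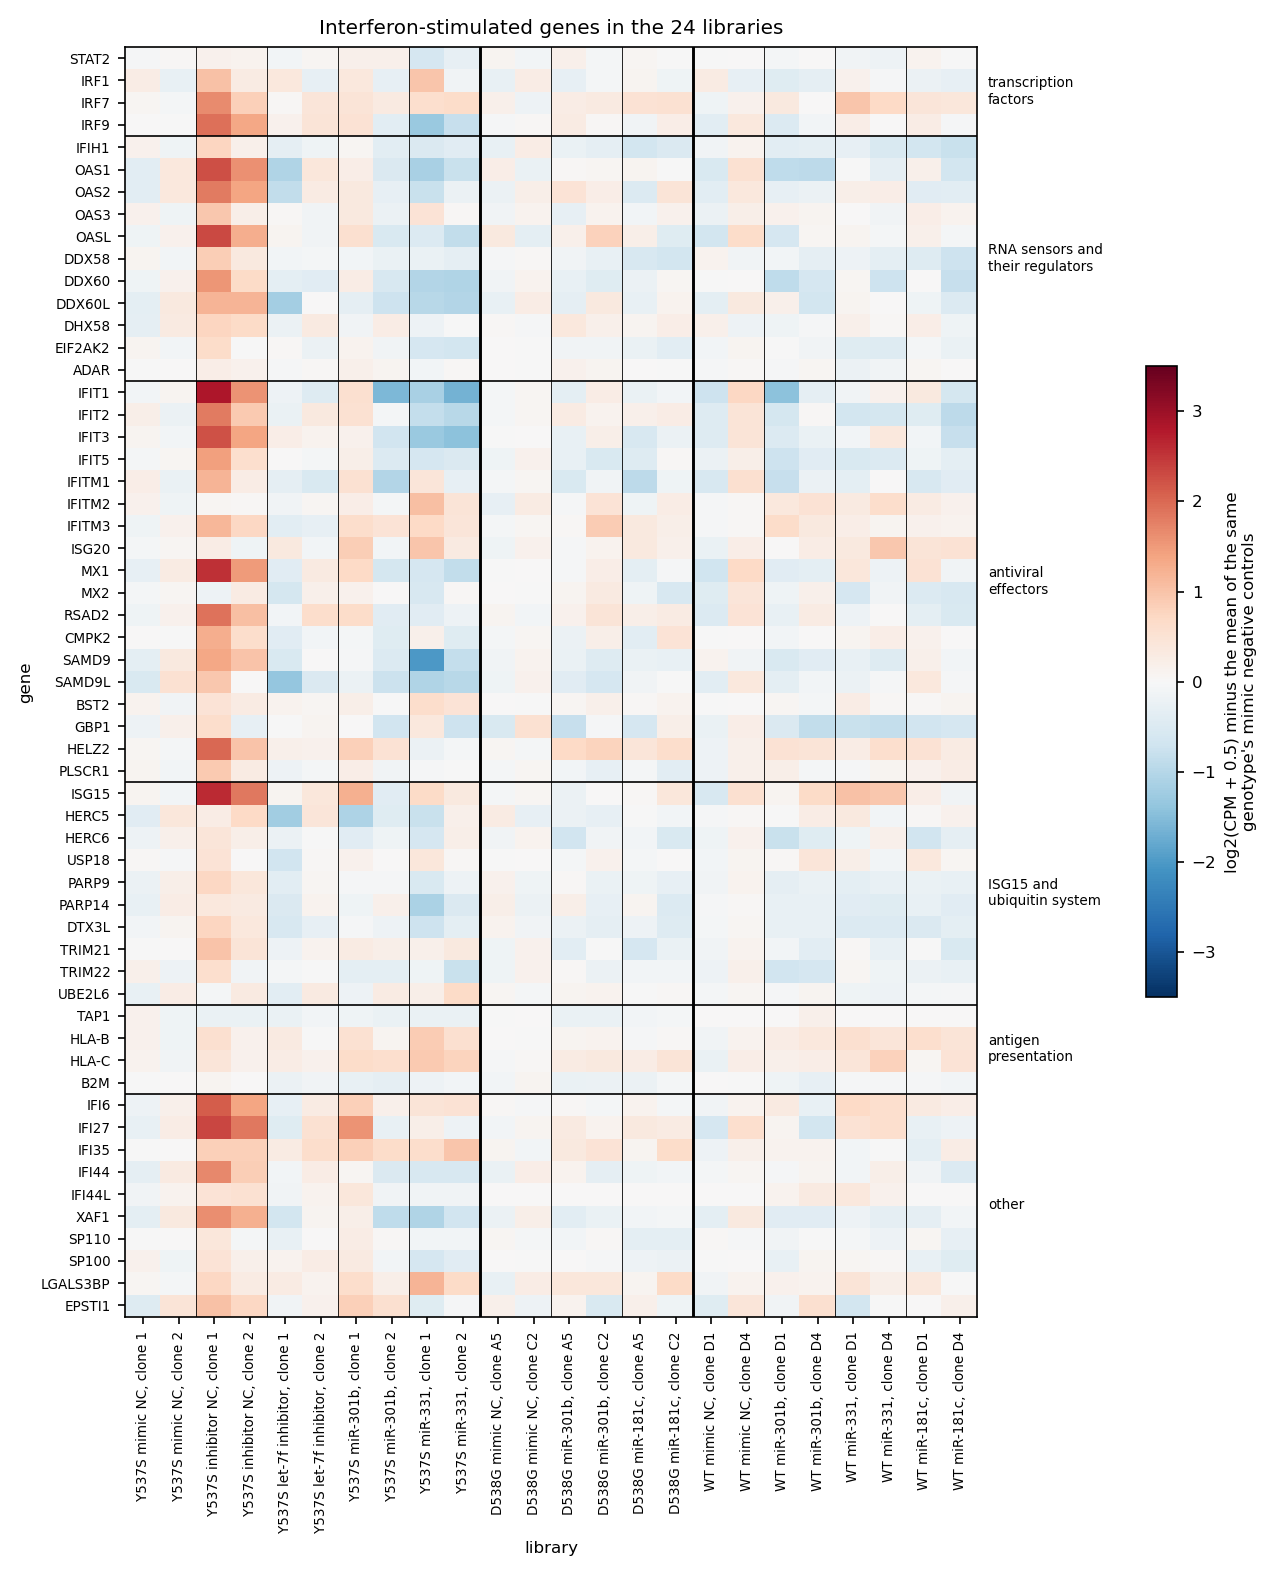
Each line of the heatmap is 1 of the 57 genes, grouped by role, and each column 1 of the 24 libraries. Color gives log2(CPM + 0.5) minus the mean of the mimic NC libraries of the same genotype, red for higher and blue for lower. The inhibitor NC columns are red for most genes.

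The Y537S clones received both kinds of negative control, which allows these to be compared. With the inhibitor NC, all 56 members tested had a log2 fold change above 0 against the mimic NC, compared with 49.3% of all 15063 genes. The median log2 fold change was 0.72 over the members and −0.00 over all genes. Both inhibitor NC libraries lay above both mimic NC libraries for 44 members, compared with 20% of all genes, and for 0 members they lay below, compared with 16.7%. TAP1 was not tested because its counts were too low. It stood at 0.155 and 0.0235 CPM with the mimic NC and at 0 and 0 CPM with the inhibitor NC. IFI44L stood at 0 and 0.0942 CPM against 0.259 and 0.289 CPM. It passed the filter on low counts only through the inhibitor NC libraries, so its direction among the 56 was set by the filter. In bulk RNA, more responding cells and more RNA per cell cannot be told apart.

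Whether these differences passed a test depended on the pairing of clones. With edgeR's quasi-likelihood test on 2 against 2 libraries, 0 members and 0% of all genes were called at an adjusted p under 0.05, and 32 members had an unadjusted p under 0.05. DESeq2 called 14 members, all higher. Here and below, shares of all genes are not given for unadjusted p-values or, apart from miR-331 in Y537S cells, for DESeq2. Such counts alone do not tell the members from other genes. The same clones stand on both sides, and with clone as a block edgeR called 42 members higher and 0 lower, when 8.87% of all genes were called higher and 7.84% lower. An exact permutation of 2 against 2 libraries cannot give a two-sided p below 0.333.

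By role, the blocked fit called 3 of 4 transcription factors higher with the inhibitor NC, 11 of 11 RNA sensors and regulators, and 13 of 18 antiviral effectors. It also called 5 of 10 genes of the ISG15 and ubiquitin system, 2 of 3 antigen presentation genes and 8 of 10 other induced genes. Without the block, the median log2 fold change ran from 0.28 for antigen presentation to 1.09 for antiviral effectors and 1.45 for the other induced genes.

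In the values that follow, parentheses give the log2 fold change of the edgeR fit without a block, its SE and the adjusted p over all genes tested, unless a blocked fit is named. Among the transcription factors, IRF9, the DNA-binding subunit of ISGF3, stood at 9.48 and 9.3 CPM with the mimic NC and at 37.4 and 25 CPM with the inhibitor NC (1.72, SE 0.21, adjusted p = 0.357, and 5.00e-13 with the block). IRF7, a regulator of interferon gene transcription, stood at 3.9 and 3.48 CPM against 12.7 and 6.98 CPM, and IRF1 at 4.11 and 2.68 CPM against 7.32 and 4.16 CPM. All 3 were called in the blocked fit, and in each both inhibitor NC libraries were the higher. STAT2, another subunit of ISGF3, stood at 104 and 109 CPM against 119 and 116 CPM and was not called (blocked log2 difference 0.13, adjusted p = 0.079).

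The RNA sensors rose together in the blocked fit, by different amounts. OAS2, one of the oligoadenylate synthetases that activate RNase L on binding double-stranded RNA, stood at 12.4 and 20.7 CPM against 57.7 and 42.6 CPM (1.58, SE 0.28, adjusted p = 0.486, and 1.83e-10 with the block). Its relative OAS1 stood at 1.94 and 3.55 CPM against 14.5 and 9.07 CPM. DDX58, which encodes the RNA sensor RIG-I, stood at 40.9 and 36 CPM against 70 and 48.4 CPM. In all of these both inhibitor NC libraries were above both mimic NC libraries, with clone 1 the higher. IFIH1, which encodes the related sensor MDA5, stood at 24.5 and 19.8 CPM against 37.5 and 25 CPM. ADAR had the smallest difference of the group, 0.17 (blocked adjusted p = 0.00197).

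Antiviral effectors included some of the widest differences. IFIT1, which binds viral RNA that lacks the cap modification of host RNA, stood at 8.06 and 9.11 CPM against 64.6 and 26.7 CPM (2.39, SE 0.42, adjusted p = 0.486, and 5.43e-12 with the block). IFIT3, which binds IFIT1, stood at 3.54 and 3.08 CPM against 17.5 and 9.48 CPM (2.01, SE 0.32, adjusted p = 0.425, and 8.66e-11 with the block). MX1, a dynamin-like GTPase that blocks viral replication, stood at 20.3 and 30 CPM against 147 and 70.8 CPM. For each of these genes the lower inhibitor NC library, from clone 2, was above the higher mimic NC library. Exons of IFIT3 overlap LIPA and those of MX1 overlap TMPRSS2 on the opposite strand, and the strand setting of the counting is not given in the sources used here. Other effectors were not called: the blocked log2 differences of IFITM2, MX2 and ISG20 were 0.04, 0.05 and 0.06.

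ISG15 had the largest log2 fold change of the members. It stood at 1.5 and 1.22 CPM against 10.8 and 6.18 CPM (2.63, SE 0.34, adjusted p = 0.357, and 5.47e-11 with the block). Enzymes that act on it stood closer together: UBE2L6, its conjugating enzyme, at 50.1 and 72.8 CPM against 57.4 and 75.1 CPM, and USP18, which removes it, at 8.7 and 8.26 CPM against 11.9 and 8.52 CPM. HERC5, its main ligase, stood at 1.86 and 3.53 CPM against 3.21 and 4.52 CPM. The groups overlapped for all 3 enzymes, and none was called in the blocked fit (adjusted p = 0.29, 0.236 and 0.101).

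Among the other induced genes, IFI27 stood at 0.723 and 1.27 CPM against 6.9 and 4.81 CPM (2.53, SE 0.38, adjusted p = 0.41, and 2.75e-08 with the block). IFI6 stood at 11.2 and 14.6 CPM against 57.5 and 34.3 CPM (1.82, SE 0.28, adjusted p = 0.41, and 1.71e-11 with the block). IFI35 stood at 9.92 and 10.3 CPM against 18.3 and 18.5 CPM (0.85, SE 0.13, adjusted p = 0.41, and 8.76e-07 with the block). All 3 encode interferon-induced proteins, and in none did the groups overlap. Antigen presentation genes differed less: HLA-B by 0.34, HLA-C by 0.28 and B2M by 0.05 in the blocked fit, with adjusted p = 4.25e-06, 0.0104 and 0.484. Reads of HLA-B and HLA-C can be shared between these similar genes, as can those of the IFITM and OAS genes.

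**Figure D2:**
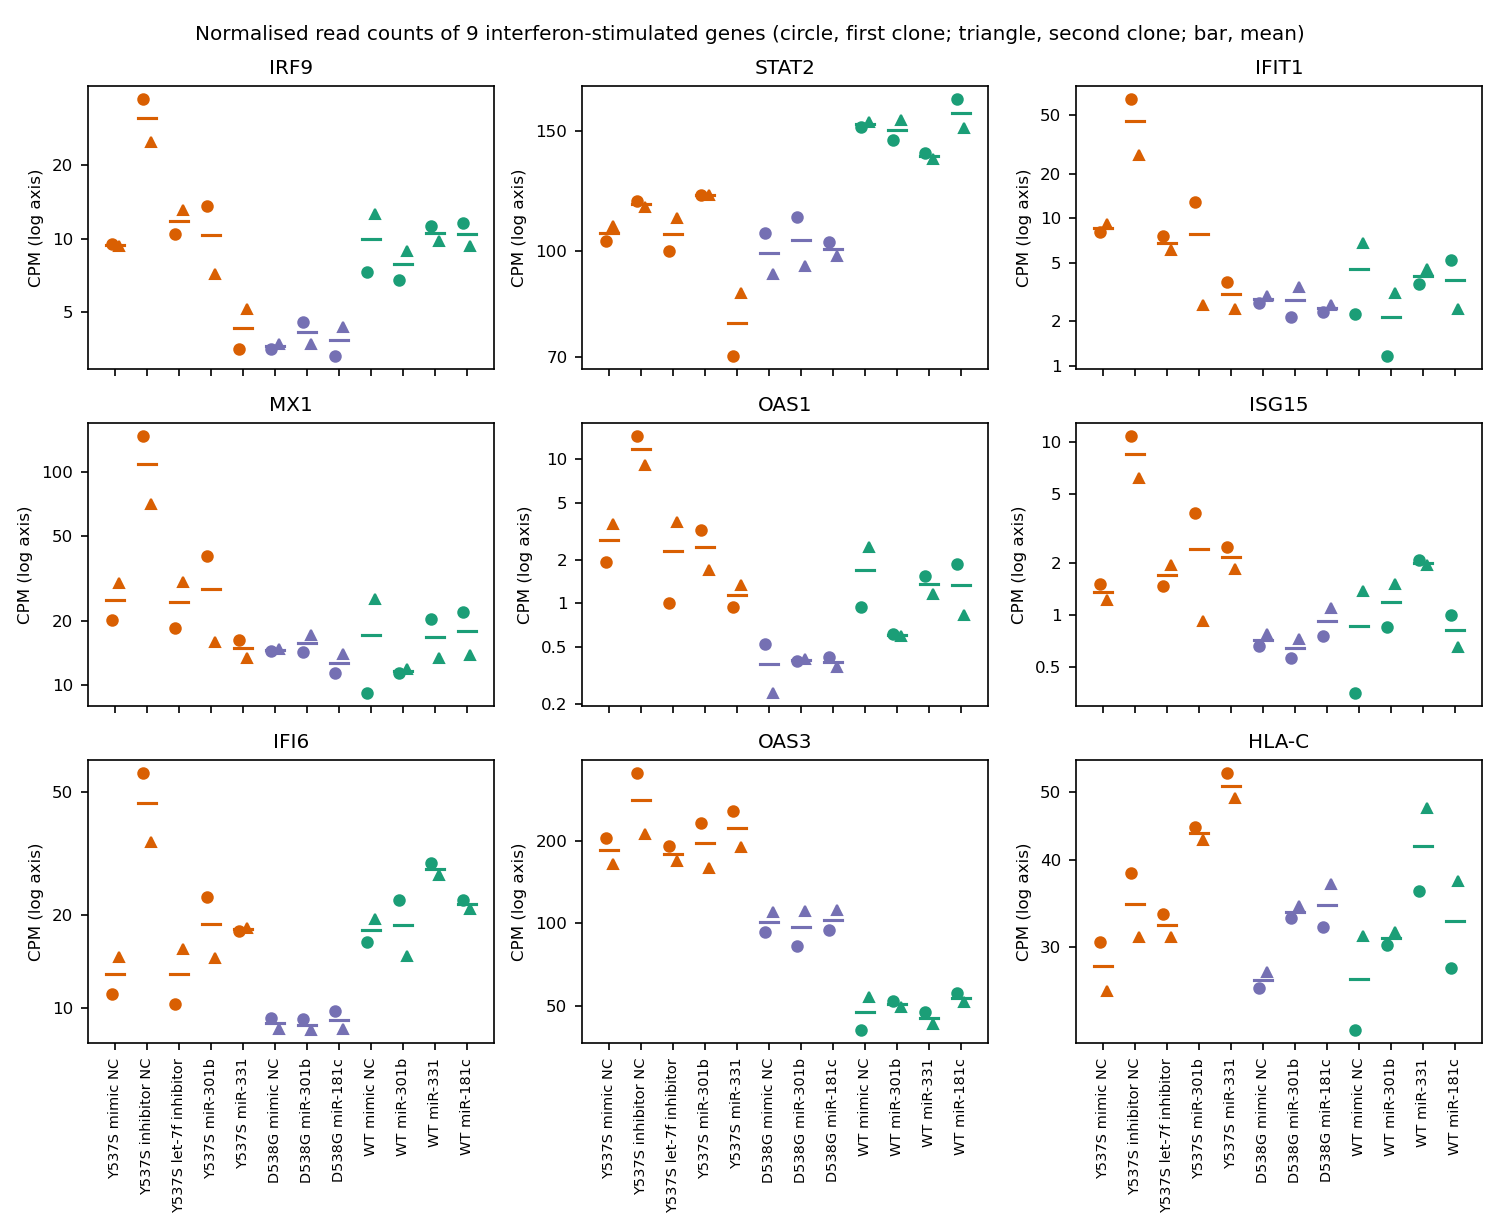
CPM on a log axis of 9 members in the 12 groups. Points are libraries, circles the first and triangles the second clone of a genotype, and bars the mean of 2. For IRF9, IFIT1, MX1, OAS1, ISG15 and IFI6 both inhibitor NC libraries lie above the other 22.

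The difference was larger in clone 1 for most members. Of the 56 tested, 50 were higher with the inhibitor NC in both clones, compared with 35.6% of all genes, and 6 went opposite ways. The median log2 CPM difference was 1.04 in clone 1 and 0.42 in clone 2, and 53 members had the larger difference in clone 1. SAMD9L, an antiviral effector, stood at 2.03 in clone 1 and −0.71 in clone 2. Without the inhibitor NC library of clone 1 the fold change stayed above 0 for 50 members, with a median of 0.43, and edgeR called 0. Without that of clone 2 it called 8.

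**Figure D3:**
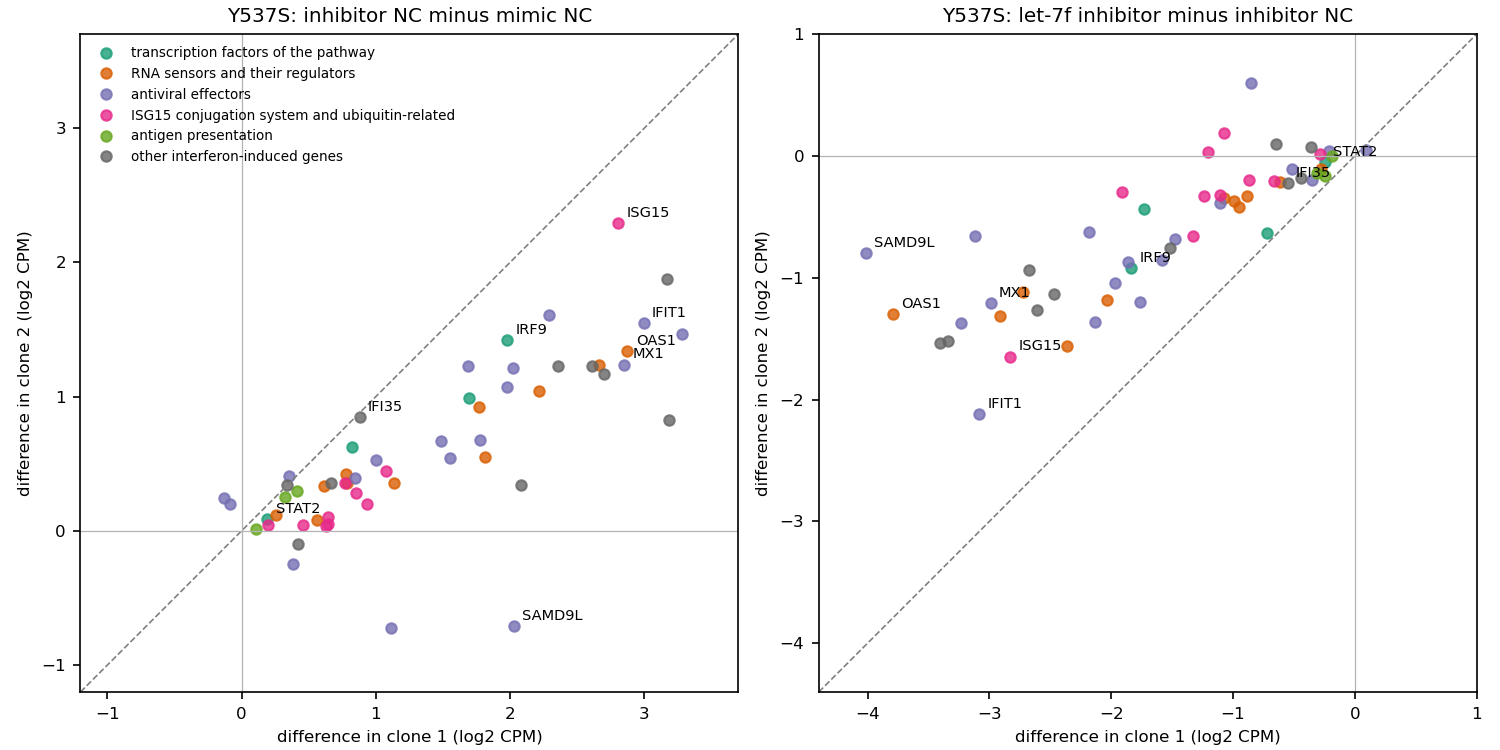
Log2 CPM difference in Y537S clone 1 (x axis) against clone 2 (y axis) for each tested member, colored by role, for the inhibitor NC minus the mimic NC (left) and the let-7f inhibitor minus the inhibitor NC (right), which share the inhibitor NC libraries. The dashed line marks equal differences. Most members lie above 0 on both axes at left and below 0 on both at right, farther out for clone 1.

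The let-7f inhibitor was compared with its own control, the inhibitor NC. Of 56 members tested, 1 had a log2 fold change above 0, and the median was −0.79, with 0.00 over all 15140 genes. Both let-7f inhibitor libraries lay below both inhibitor NC libraries for 42 members, compared with 17.1% of all genes. Without a block edgeR called 0 members and 0% of all genes, with 37 members at an unadjusted p under 0.05, and DESeq2 called 17, all lower. With the block edgeR called 44 members lower and 0 higher, when 6.88% and 4.31% of all genes were called. These are the same inhibitor NC libraries as above, so both comparisons carry their values. IFI44L again entered the test through them.

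IFIT1 stood at 7.56 and 6.11 CPM with the let-7f inhibitor (−2.73, SE 0.44, adjusted p = 0.751, and 6.77e-10 with the block). ISG15 stood at 1.48 and 1.94 CPM (−2.3, SE 0.35, adjusted p = 0.751, and 2.71e-06 with the block). DTX3L, which forms a ubiquitin ligase complex with PARP9, stood at 63.4 and 47.9 CPM with the inhibitor NC and 25.2 and 30.3 CPM with the let-7f inhibitor (−1.0, SE 0.16, adjusted p = 0.751, and 2.02e-06 with the block). None of the 3 overlapped between the groups. The exception in direction was ISG20, a 3′ to 5′ exonuclease (0.08, SE 0.32, adjusted p = 1).

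Against the mimic NC, the let-7f inhibitor gave a median log2 fold change of −0.04 over 55 members (0.01 over all genes). Both edgeR without a block and DESeq2 called 0 members, when 0% of all genes were called by edgeR, and 2 members had an unadjusted p under 0.05. With the block IFI35 was higher (0.48, SE 0.13, blocked adjusted p = 0.00289), and DTX3L (−0.43, SE 0.09, blocked adjusted p = 4.90e-05), B2M (−0.16, SE 0.05, blocked adjusted p = 0.0158) and SAMD9L (−1.84, SE 0.56, blocked adjusted p = 0.00962) were lower, when 8.72% and 9.27% of all genes were called. SAMD9L had few counts, 4 in its lowest library, which was the let-7f inhibitor library of clone 1. It stood at 0.568 and 1.77 CPM with the mimic NC and 0.105 and 0.586 CPM with the let-7f inhibitor, and the groups overlapped. MX1 stood at 18.5 and 30.5 CPM with the let-7f inhibitor, beside the 20.3 and 30 CPM of the mimic NC. The sources used here do not say whether the cells with either negative control were transfected together. Leukocyte markers summed to 2.13 and 3.51 CPM in the inhibitor NC libraries and to 2.40 and 2.38 CPM in the mimic NC libraries.

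Genes upstream of the members were taken from a list of interferons, receptors, signaling genes, adaptors of nucleic acid sensing and SOCS inhibitors. Between the negative controls edgeR called 0 of them without the block. With the block IL10RB, a receptor chain for type III interferons, went from 23.2 and 24.2 CPM to 30.1 and 30.3 CPM (0.34, adjusted p = 0.00373), and TRIM25, a ubiquitin ligase that acts on RIG-I, from 184 and 204 CPM to 218 and 215 CPM (0.15, adjusted p = 0.0178). Both inhibitor NC libraries were the higher for each. The kinase gene JAK1 and the receptor gene IFNAR1 had blocked differences of −0.03 and −0.01. Of 14 NF-kB targets and chemokines 7 were tested and 1 was called with the block, the chemokine gene CCL5 (1.55, adjusted p = 0.0167).

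With the miR-331 mimic, members of Y537S cells changed in both directions. Against the mimic NC edgeR called 5 of 53 members higher and 6 lower, when 17.2% and 15.8% of all 14877 genes were called. These shares of the members are below those of all genes. With the block it called 12 higher and 22 lower, when 30.5% and 30.2% of all genes were called, so that the share of lower members was then above that of all genes. DESeq2 called 12 members lower, with 2513 of all genes, also a larger share of the members. IFI44, IFI44L, RSAD2 and TAP1 were not tested. Without the miR-331 library of clone 2 the unblocked total rose to 17.

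The 6 members called lower without the block were effectors, sensors and IRF9. IFIT3 went from 3.54 and 3.08 CPM to 1.04 and 0.899 CPM (−1.75, SE 0.32, adjusted p = 0.0139). IFIT1 went from 8.06 and 9.11 CPM to 3.67 and 2.41 CPM (−1.48, SE 0.28, adjusted p = 0.0147). EIF2AK2, which encodes the RNA-activated kinase PKR, went from 53.1 and 46.9 CPM to 32.8 and 31.9 CPM (−0.61, SE 0.11, adjusted p = 0.0122). For all 3 both mimic libraries were below both controls. The other calls in this direction were IRF9 (−1.1), the helicase gene DDX60 (−1.23) and IFIT2 (−1.07). STAT2, at 70.4 and 86.9 CPM, had its lowest 2 levels of all libraries here and was called with the block (−0.43, SE 0.07, blocked adjusted p = 2.05e-05).

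The 5 members called higher without the block included both HLA genes. HLA-C went from 30.5 and 26 CPM to 53.1 and 48.9 CPM (0.87, SE 0.12, adjusted p = 0.00778). HLA-B went from 124 and 100 CPM to 205 and 164 CPM (0.74, SE 0.15, adjusted p = 0.0195). LGALS3BP, a secreted protein that binds galectins, went from 15.1 and 13.8 CPM to 33.4 and 23.2 CPM (0.98, SE 0.20, adjusted p = 0.0183). The groups did not overlap for these genes. IFI35 (0.85) and BST2 (0.56) were the other calls.

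In WT cells the miR-331 mimic gave 5 higher and 5 lower members of 54 with edgeR, when 14.2% and 10.6% of all genes were called. IFI6 rose from 16.4 and 19.4 CPM to 29.5 and 26.9 CPM (0.68, SE 0.11, adjusted p = 0.00178). HLA-B rose from 72.5 and 85.5 CPM to 116 and 106 CPM (0.51, SE 0.09, adjusted p = 0.00201), and IRF7 from 3.5 and 4.42 CPM to 8.24 and 6.63 CPM (0.94, SE 0.20, adjusted p = 0.00738). In each the mimic libraries were the higher 2. HLA-C (0.65) and the helicase gene HELZ2 (0.45) also rose. PARP14, an ADP-ribosyltransferase, fell from 85.2 and 89.9 CPM to 66.1 and 65.5 CPM (−0.39, SE 0.06, adjusted p = 0.00195), DTX3L from 47.1 and 52.3 CPM to 35.7 and 35.4 CPM (−0.46, SE 0.08, adjusted p = 0.00264) and EIF2AK2 from 35.1 and 39.5 CPM to 27.5 and 26.9 CPM (−0.43, SE 0.09, adjusted p = 0.00618). PARP9 and IFIH1 were the other falls. DTX3L and PARP9 overlap on opposite strands. With the block the counts were 9 and 10, when 19.8% and 17.2% of all genes were called, and without the control library of clone D4 the unblocked total was 16.

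The 2 genotypes have their own control libraries. In the blocked fits 7 members were higher with miR-331 in both genotypes, 58.3% of the Y537S list and 77.8% of the WT list: BST2, HLA-B, HLA-C, IFI6, IFITM2, IRF7 and ISG20. They are 13.5% of the 52 members tested in both genotypes, where 15.9% of 14489 genes tested in both were called higher in both. A further 8 were lower in both, 36.4% of the Y537S list and 80% of the WT list: DDX58, DTX3L, EIF2AK2, IFIH1, IFIT2, IFIT5, PARP14 and PARP9. They are 15.4% of the 52, where 12.9% of all genes were called lower in both. IFIT1 in WT cells stood at 2.22 and 6.83 CPM with the control and 3.57 and 4.49 CPM with the mimic, IFIT3 at 1.36 and 3.01 CPM and 1.87 and 2.77 CPM, and IRF9 at 7.32 and 12.7 CPM and 11.3 and 9.75 CPM. In these 3 genes the WT mimic libraries fell between the control clones.

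The difference in response between Y537S and WT cells was tested as an interaction. Without a block edgeR called 0 of 55 members, when 9.94% of all genes were called, 7 members had an unadjusted p under 0.05, and DESeq2 called 3. With the block 5 responses were higher and 10 lower in Y537S than in WT cells, when 16.7% and 17.4% of all genes were called. The share of members was below that of all genes for higher responses and near it for lower ones. Among the members called were IFIT3 (−1.94, SE 0.43, blocked adjusted p = 0.000828), IRF9 (−1.27, SE 0.26, blocked adjusted p = 0.000399), IFI35 (0.86, SE 0.18, blocked adjusted p = 0.000497) and UBE2L6 (0.58, SE 0.10, blocked adjusted p = 3.18e-05). The WT control clones themselves stood apart: D4 was above D1 for 40 of 46 members with at least 1 CPM, compared with 51.04% of all genes, with a median log2 difference of 0.27.

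**Figure D4:**
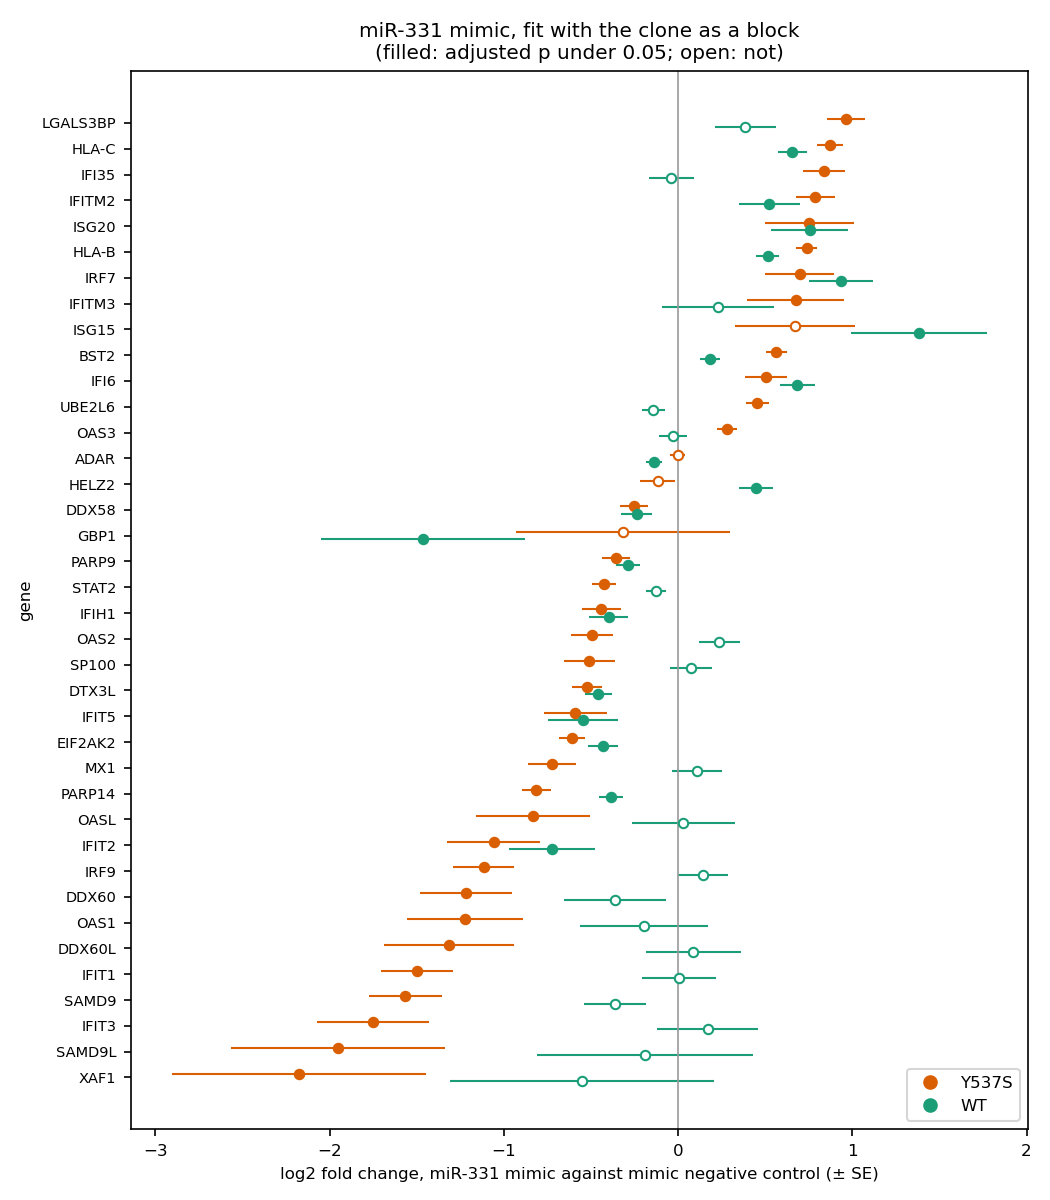
Log2 fold change with SE for the 38 members called in at least 1 genotype, miR-331 mimic against mimic NC, from the edgeR fit with clone as a block. Filled points passed an adjusted p of 0.05 and open points did not. HLA-B and HLA-C lie right of 0 and DTX3L and EIF2AK2 left of 0 in both genotypes.

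The miR-301b mimic was compared with the mimic NC in all 3 genotypes. In Y537S cells edgeR called 0 of 55, when 3.57% of all genes were called, with 4 at an unadjusted p under 0.05, and DESeq2 called 4. HLA-C stood at 44.5 and 42.7 CPM (0.60, SE 0.12, adjusted p = 0.0517), IFI35 at 18.3 and 15.9 CPM (0.73, SE 0.15, adjusted p = 0.0582) and HELZ2 at 41.9 and 33.4 CPM (0.67, SE 0.14, adjusted p = 0.0621), all above both controls. B2M, at 187 and 179 CPM (−0.30, SE 0.08, adjusted p = 0.101), was below both. The block called 7 members higher, these 3 among them, and 3 lower, when 18.4% and 20% of all genes were called. In both clones 18 members were higher and 7 lower, compared with 41.1% and 35.3% of all genes. The clones went opposite ways for 30 members: 48 were higher in clone 1 and 18 in clone 2. IFIT1 stood at 13.0 CPM in clone 1 and 2.57 CPM in clone 2, on either side of the control.

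In D538G cells HELZ2 was the 1 member of 50 called with miR-301b, at 34.1 and 35.7 CPM against 21.7 and 19.7 CPM (0.75, SE 0.11, adjusted p = 0.006), when 5.29% of all genes were called higher and 6.49% lower. HLA-C (0.32, SE 0.10, adjusted p = 0.0758) and IFI35 (0.43, SE 0.15, adjusted p = 0.0986) lay above, and B2M (−0.22, SE 0.09, adjusted p = 0.132), DTX3L (−0.27, SE 0.12, adjusted p = 0.15) and SAMD9 (−0.37, SE 0.20, adjusted p = 0.251) below the control in both clones. The block called 4 higher and 3 lower, when 16.4% and 16.9% of all genes were called. In WT cells edgeR called 0 of 52, when 8.5% of all genes were called, with 13 at an unadjusted p under 0.05, and DESeq2 called 2. HELZ2 stood at 30.4 and 29.4 CPM against 18.7 and 24.1 CPM there (0.48, SE 0.13, adjusted p = 0.0632), and PARP14 at 72.9 and 73.2 CPM against 85.2 and 89.9 CPM (−0.26, SE 0.08, adjusted p = 0.077). The block called 2 higher, HELZ2 and HLA-B, and 10 lower, when 14% and 14.2% were called among all genes. Tests of the difference in miR-301b response between either mutant and WT called 0 members by edgeR with and without the block and by DESeq2, with 1 member at an unadjusted p under 0.05 in each unblocked fit. Those fits called 0.00632% of all genes for Y537S and 0.0064% for D538G, and the blocked fits 0.202% and 0.147%.

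The RNA sensor genes DDX58 and IFIH1 were lower with the miR-181c mimic. In D538G cells DDX58 fell from 24.9 and 26 CPM to 17.1 and 16.1 CPM (−0.61, SE 0.12, adjusted p = 0.0132), and IFIH1 stood at 15.6 and 22.2 CPM against 11.6 and 12.9 CPM (−0.62, SE 0.17, adjusted p = 0.0544, and 2.13e-05 with the block). In WT cells DDX58 fell from 38 and 31.8 CPM to 25.5 and 20.9 CPM (−0.60, SE 0.13, adjusted p = 0.0113) and IFIH1 from 17.9 and 21.1 CPM to 12.3 and 11 CPM (−0.76, SE 0.14, adjusted p = 0.00559). For both genes and in both genotypes the mimic libraries were below the controls. DHX58, a relative of DDX58 and IFIH1, stood at 9.31 and 8.89 CPM against 9.8 and 10.7 CPM in D538G cells and at 10.8 and 8.48 CPM against 11.3 and 8.53 CPM in WT cells. Of the 11 sensors and regulators, 1 was called lower in D538G and 2 in WT cells, and 3 in each with the block. HELZ2 was the 1 rise in D538G cells (0.53, SE 0.12, adjusted p = 0.0235), and HLA-B, at 120 and 107 CPM, the 1 rise in WT cells (0.51, SE 0.10, adjusted p = 0.00668), where DTX3L (−0.44, SE 0.10, adjusted p = 0.0138) and PARP14 also fell.

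In all, miR-181c gave 1 higher and 1 lower of 51 members in D538G cells, when 5.58% and 3.95% of all genes were called. In WT cells it gave 1 and 4 of 51, when 8.1% and 8.28% were called. With the block the counts were 5 and 7 in D538G cells (all genes 15.6% and 13.6%) and 3 and 7 in WT cells (14.5% and 13.4%). Without the miR-181c library of clone C2, 0 members were called in D538G cells. The test of the difference between D538G and WT called 0 members by edgeR with and without the block and by DESeq2, when 0.00646% of all genes were called without it and 0.0775% with it, and 2 members had an unadjusted p under 0.05.

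Mimics given to 1 genotype share its control libraries, so the values that follow are set side by side only. DTX3L had blocked log2 fold changes of −0.27 with miR-301b and −0.32 with miR-181c in D538G cells, and of −0.27, −0.46 and −0.44 with miR-301b, miR-331 and miR-181c in WT cells, each called. In Y537S cells it was called lower with miR-331 and was not called with miR-301b. HLA-C had 0.61 and 0.87 with miR-301b and miR-331 in Y537S cells and 0.32 and 0.36 with miR-301b and miR-181c in D538G cells, each called. In WT cells HLA-C was called higher with miR-331 and was not called with miR-301b. LGALS3BP was called higher with both mimics in Y537S cells (0.40 and 0.96) and in D538G cells (0.40 and 0.39). In WT cells it had 0.16, 0.39 and 0.18 with the 3 mimics and was not called.

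With the mimic NC alone, the genotypes can be compared at baseline, where a genotype and the clones that carry it cannot be told apart. In Y537S against WT cells edgeR called 9 of 55 members higher and 4 lower, when 16.3% and 12.7% of all genes were called. OAS3 stood at 205 and 165 CPM in Y537S and 40.8 and 53.9 CPM in WT cells (1.98, SE 0.15, adjusted p = 0.000224). LGALS3BP stood at 15.1 and 13.8 CPM against 5.01 and 6.06 CPM (1.4, SE 0.18, adjusted p = 0.00153), and IFITM2, which blocks viral entry, at 13.7 and 10.9 CPM against 4.66 and 5.01 CPM (1.35, SE 0.19, adjusted p = 0.00251). These were higher in both Y537S clones than in either WT clone. STAT2 stood at 104 and 109 CPM against 152 and 154 CPM (−0.51, SE 0.08, adjusted p = 0.00314), PARP14 at 33.4 and 48.8 CPM against 85.2 and 89.9 CPM (−1.07, SE 0.17, adjusted p = 0.00408) and PARP9 at 32.8 and 43.6 CPM against 65.4 and 77.8 CPM (−0.89, SE 0.16, adjusted p = 0.00605). These were lower in both Y537S clones. HERC5, HERC6, PLSCR1, HLA-B, EIF2AK2 and B2M were also higher and DTX3L lower. Without the WT library of clone D1 the total was 8.

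In D538G against WT cells 5 of 51 members were higher and 13 lower, when 20.4% and 18.5% of all genes were called. The same WT libraries serve as reference. Without the WT library of clone D4 the lower members went from 13 to 8, with 6 higher, and the median log2 fold change over the members went from −0.17 to 0.06. OAS2 stood at 2.99 and 4.15 CPM in D538G and 11.1 and 18.9 CPM in WT cells (−2.09, SE 0.28, adjusted p = 0.000418). STAT2 stood at 106 and 92.8 CPM against 152 and 154 CPM (−0.64, SE 0.08, adjusted p = 0.00036) and UBE2L6 at 55.4 and 51.1 CPM against 79.3 and 85.6 CPM (−0.64, SE 0.08, adjusted p = 0.000388). All 3 were lower in both D538G clones. IFI27 (−3.17), OAS1 (−2.16), OASL (−1.87), IRF9 (−1.47), IFIT2 (−1.26) and IFI6 (−1.01) were among the other lower members. The first 3 had few counts in D538G cells, and their WT clones stood apart. IFI27 stood at 0.137 and 0.239 CPM against 0.867 and 2.54 CPM, and OAS1 at 0.522 and 0.239 CPM against 0.949 and 2.48 CPM. OASL stood at 0.934 and 0.388 CPM against 1.22 and 3.64 CPM. OAS3 stood at 92.8 and 110 CPM (1.09, SE 0.13, adjusted p = 0.000293), LGALS3BP at 11.2 and 16.3 CPM (1.3, SE 0.22, adjusted p = 0.00143) and B2M at 235 and 269 CPM against 180.6 and 180 CPM (0.47, SE 0.08, adjusted p = 0.00171). The OAS family was thus split in D538G cells, OAS3 higher and OAS1, OAS2 and OASL lower, where OAS1 and OASL rest on few counts. IFI44, IFI44L, RSAD2, CMPK2, XAF1 and TAP1 were not tested in this comparison.

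**Figure D5:**
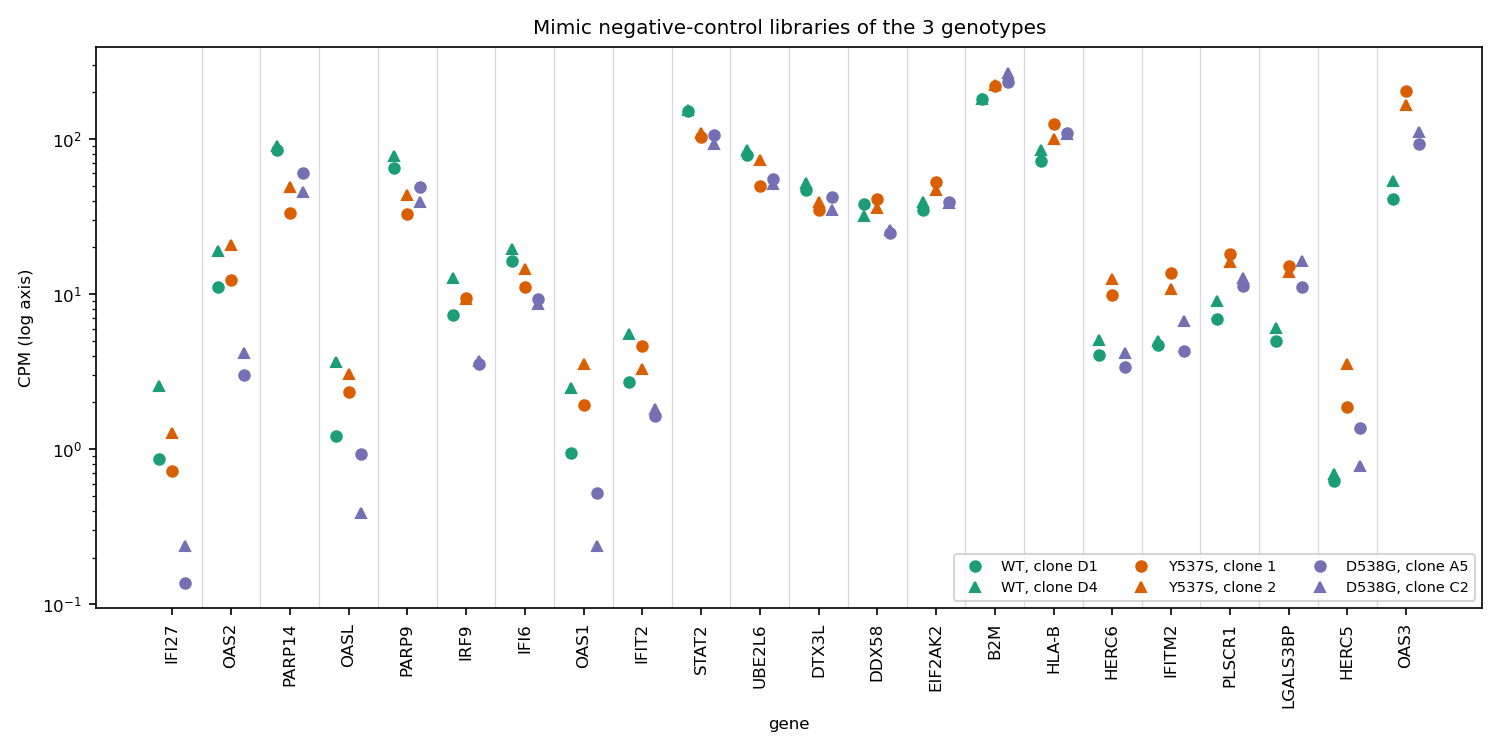
CPM on a log axis in the 6 mimic NC libraries for the members called in at least 1 baseline comparison. Color marks the genotype and shape the clone. For OAS3 the Y537S clones are highest and the WT clones lowest, while for OAS1 and OAS2 the D538G clones are lowest.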

How the data were processed

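RNA-seq counts per gene from 24 libraries, 12 groups of 2, were analysed. The authors deposited raw read counts, with 1 table for each genotype. The submitters' processing notes name HISAT2, SAMtools, Subread and DESeq2 and the build hg19. The library kit was stranded, and the strand and multimapping settings of the counting are not given in the sources used here. Totals of 31379962 to 50526442 counts (median 39878595) set the precision.

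The 57 members, the other lists and the tests were chosen with earlier results of these data known. Counts were tested with edgeR 4.0.16 (R 4.3.3): TMM scaling, filterByExpr, and the quasi-likelihood F test on the libraries of each comparison, with p-values adjusted by Benjamini-Hochberg over all genes tested and called under 0.05. The SE is the log2 fold change divided by the square root of F. CPM values are TMM-normalised and were computed here from the deposited counts. The same clone stands in both groups of each treatment comparison, which pairs the libraries. The correlation of the differences between clones in treated and control libraries was 0.544 to 0.593 in Y537S, 0.236 to 0.253 in D538G and 0.173 to 0.243 in WT. Fits with clone as a block were therefore run beside the unblocked fits. Full statistics were given for the 8 members with the smallest p between the negative controls, and elsewhere chiefly for those among the 3 with the smallest p in each direction. Alternatives were a joint fit over every condition of a genotype, DESeq2 1.42.0, RLE scaling, keeping genes with few counts, a GC correction and leaving out each library. The scripts were tested on simulated data. Part of the list of upstream genes is not reported here. Columns named A5, C2, D1 and D4 were assigned to groups only, since the labels number the clones. For Y537S the titles were followed where another label field writes Y573S. Figures used Python 3.11.15 and matplotlib 3.10.9.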

Additional observations from a re-analysis of the deposited data

Results flagged for a closer look

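The responses of 15 members to the miR-331 mimic differed between Y537S and WT cells in the interaction test of edgeR with clone as a block, at an adjusted p under 0.05 over all genes. In the same fit the response was higher in Y537S cells for 16.7% and lower for 17.4% of all genes, beside 5 and 10 of 55 members. The share of members was thus below that of all genes for higher responses and near it for lower ones. These counts do not set the members apart from other genes. The responses are given as the log2 response in Y537S minus that in WT cells. The response was lower in Y537S cells for IFIT3 (−1.94), IFIT1 (−1.52), DDX60L (−1.42), IRF9 (−1.27), SAMD9 (−1.22), OAS2 (−0.748), SP100 (−0.599), HELZ2 (−0.58), PARP14 (−0.443) and STAT2 (−0.313). It was higher for OAS3 (0.296), BST2 (0.362), LGALS3BP (0.559), UBE2L6 (0.582) and IFI35 (0.861). Without the block edgeR called 0 of these, and the WT control clones lay on both sides of the WT mimic libraries for IFIT1, IFIT3 and IRF9. The part of the distance between those clones in these results was not tested.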

How the results depend on the processing

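Counts of members called are given for each comparison, in both directions together. Shares of all genes are given above for the edgeR fits with and without the block, and not for the other alternatives here. No called value reversed in direction. With clone as a block the counts were 42 for the negative controls (0 without it), 44 for the let-7f inhibitor against its control (0), 4 for the let-7f inhibitor against the mimic NC (0), 34 for miR-331 in Y537S (11) and 19 in WT cells (10), 15 for their difference (0), 10, 7 and 12 for miR-301b in Y537S (0), D538G (1) and WT cells (0), and 12 and 10 for miR-181c in D538G (2) and WT cells (5). With the block and the GC correction they were 43, 47, 5, 30 (miR-331 in Y537S), 12 (the difference), 9, 2 and 6 (miR-301b in Y537S, D538G and WT) and 4 (miR-181c in D538G). With the block and all conditions of a genotype in 1 fit, an alternative added after seeing the data, they were 36, 35, 3, 35 (miR-331 in Y537S), 7, 7 and 11 (miR-301b), and 12 and 8 (miR-181c). DESeq2 called 14 for the negative controls, 17 for the let-7f inhibitor, 18 for miR-331 in Y537S, 4 and 2 for miR-301b in Y537S and WT, and 3 for the miR-331 difference. Without a filter on low counts the counts were 8 for the negative controls, 17 and 16 for miR-331 in Y537S and WT, 3 for their difference, 3 and 7 for miR-301b in Y537S and WT, 5 and 9 for miR-181c in D538G and WT, and 21 for Y537S against WT. The GC correction gave 7 and 3 for miR-331 in Y537S and WT, 1 for their difference, 0 for miR-301b in D538G, and 0 and 1 for miR-181c. RLE scaling gave 1 for the miR-331 difference. All conditions in 1 fit without the block gave 3 and 2 for miR-301b in Y537S and WT. Leaving out 1 library gave 0 to 8 for the negative controls, 0 to 3 for the let-7f inhibitor, 9 to 17 and 7 to 16 for miR-331 in Y537S and WT, 0 to 3 for their difference, 0 to 1, 1 to 2 and 1 to 6 for miR-301b in Y537S, D538G and WT, 0 to 3 and 4 to 5 for miR-181c in D538G and WT, 8 to 17 for Y537S against WT and 14 to 21 for D538G against WT. The cause of these changes was not tested. No block could be fitted between genotypes, which have different clones. With 2 libraries a group, small differences and members with few counts could not be resolved.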
